A study of Mus musculus with 9 samples.

Results

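Endothelial identity and activation genes were read in microdissected atrioventricular (AV) nodes, the conduction tissue between the atria and the ventricles. The set comprised 10 genes chosen by symbol: Pecam1, Cdh5, Emcn, Kdr, Flt1, Tek, Tie1, Vwf, Selp and Sele. All 10 were found among the 34198 gene symbols of the bulk RNA sequencing table, and all 10 were among the 12925 symbols that reached 1 CPM (read counts scaled to library size) in at least 3 libraries and were tested. There were 9 libraries, with 3 biological replicates in each of 3 groups of C57BL/6J mice. Cd11bDTR mice, labelled macrophage-depleted, carry a diphtheria toxin receptor driven by Cd11b, a promoter that is active in monocytes and neutrophils as well as in macrophages. Cx3cr1 Cx43-/- mice are named for Cx3cr1, a gene of macrophages and monocytes, and for loss of connexin 43, the gap junction protein encoded by Gja1. The third group was labelled control. The labels give neither the ages nor the exact alleles, and they do not say whether controls received toxin, how long after depletion nodes were taken, or whether nodes were pooled.

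Endothelial cells line every vessel and the inner surface of the heart. They are held together by the adhesion proteins PECAM1 and VE-cadherin, take survival and growth signals through VEGF and angiopoietin receptors, and keep von Willebrand factor and P-selectin in storage granules from which both are released on activation. P-selectin and E-selectin on the activated surface slow passing leukocytes. Vwf, Selp and Pecam1 are also made by platelets and their precursors, so none of these is exclusive to the vessel wall.

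Endothelial genes were abundant in all groups. A list of 20 further pan-endothelial genes summed to between 460 and 771 CPM in Cd11bDTR libraries, between 848 and 906 CPM in Cx3cr1 Cx43-/- libraries and between 654 and 873 CPM in control libraries. Of 9 platelet and megakaryocyte genes, 4 reached the level for testing, and most of their signal was Pf4, which tissue macrophages also express. Per kilobase of exon, the control level was highest for Cdh5, at 22.2 ± 5.59 CPM per kb (SD, n = 3), and Pecam1, at 20.1 ± 3.14. Tie1 at 13.6 ± 1.60, Kdr at 12.7 ± 2.67 and Emcn at 12.2 ± 0.540 CPM per kb followed. Tek, at 6.80 ± 2.33, Vwf, at 5.03 ± 2.27, and Flt1, at 3.48 ± 0.672 CPM per kb, were lower. Selp and Sele came last, at 0.275 ± 0.358 and 0.267 ± 0.250 CPM per kb. In that order only 3 neighbouring pairs had control libraries that did not overlap, namely Pecam1 above Tie1, Emcn above Tek, and Flt1 above Selp. The order depends on the length used, and the exon length of Flt1, 10.961 kb, was the longest of the set. On CPM without length, the control mean of Flt1, 38.1, lay above those of Tek, 32.0, and Emcn, 31.5.

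**Figure D1:**
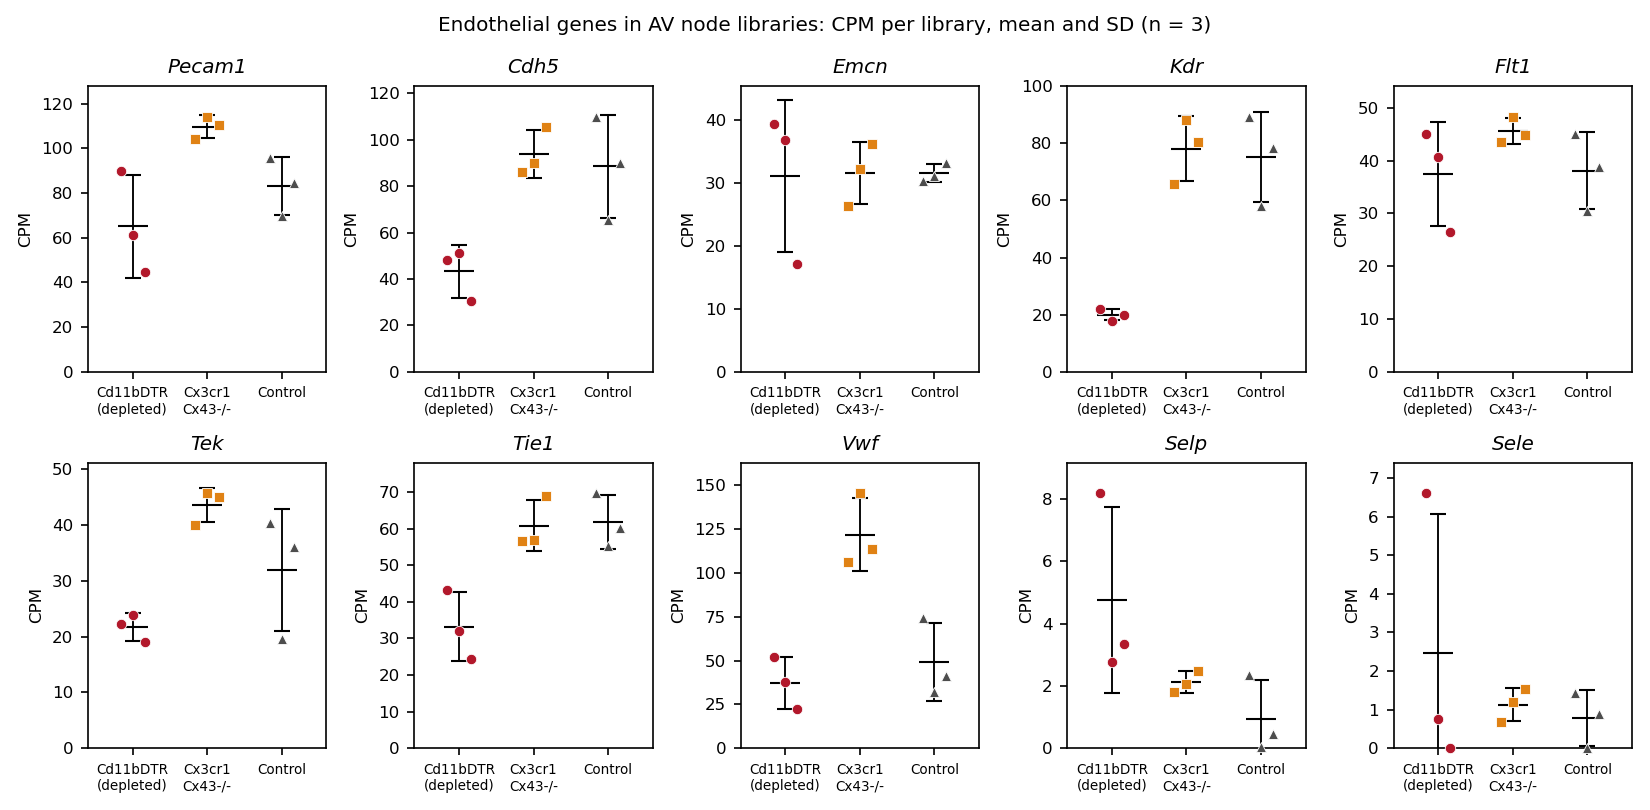
CPM of the 10 endothelial genes in each library, with a panel per gene. The horizontal axis gives the group, points are libraries, the wide tick is the mean and the bars are 1 SD (n = 3), and each vertical axis starts at 0. Kdr stands at 17.9 to 21.9 CPM in Cd11bDTR libraries and at 58.1 CPM or more in the others, while Vwf reaches 106 CPM or more only in Cx3cr1 Cx43-/- libraries.

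The libraries did not share a common scale in all respects. The listed symbols summed to 28.3% to 44.0% of the CPM denominator in Cd11bDTR libraries, 46.8% to 47.9% in Cx3cr1 Cx43-/- libraries and 42.8% to 48.7% in control libraries, with the lowest share in Cd11bDTR replicate 9. The median change of all tested genes was -0.49 (log2) in Cd11bDTR against control, -0.18 after the columns were brought to a common total and -0.03 after median-of-ratios scaling. Changes in that comparison are therefore also given relative to the median gene. Gja1 had 89.9, 56.8 and 68.3 CPM in Cd11bDTR libraries, 179, 229 and 249.99 CPM in Cx3cr1 Cx43-/- libraries and 246, 163 and 211 CPM in control libraries, so the labelled loss of connexin 43 was not visible in whole-node RNA. Cardiomyocytes are a known source of this transcript. Itgam, which encodes CD11b, averaged 6.47 ± 3.77, 8.98 ± 2.08 and 5.31 ± 3.65 CPM in the Cd11bDTR, Cx3cr1 Cx43-/- and control groups, and Cx3cr1 averaged 2.07 ± 0.778, 3.91 ± 1.71 and 5.56 ± 1.75 CPM (SD, n = 3 each). Of 12 macrophage genes of a marker list 10 were called lower in Cd11bDTR nodes by the test described next, beside 33% of all tested genes. The 12 genes summed to 55.9 to 77.0 CPM in Cd11bDTR libraries and 279 to 446 CPM in control libraries.

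In Cd11bDTR against control nodes the endothelial genes did not move as a block. Kdr fell most, Cdh5 and Tie1 fell less, Selp rose, and the other 6 did not pass the test (limma on log2(CPM + 0.5), Benjamini-Hochberg adjusted p under 0.05 over all tested genes). The count of 3 lower and 1 higher stands beside 33% of all tested genes called lower and 3.23% called higher, or 36.2% in either direction. The libraries did not overlap for these same 3 lower genes and 1 higher gene, beside 38% of all tested genes lower and 3.61% higher without overlap, 41.6% in all. The median change of the 10 genes was -0.39, against -0.49 for all tested genes. In bulk tissue a lower level cannot be assigned to fewer endothelial cells or to less RNA of that gene per cell. The part of macrophage loss in these changes was not tested.

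**Figure D2:**
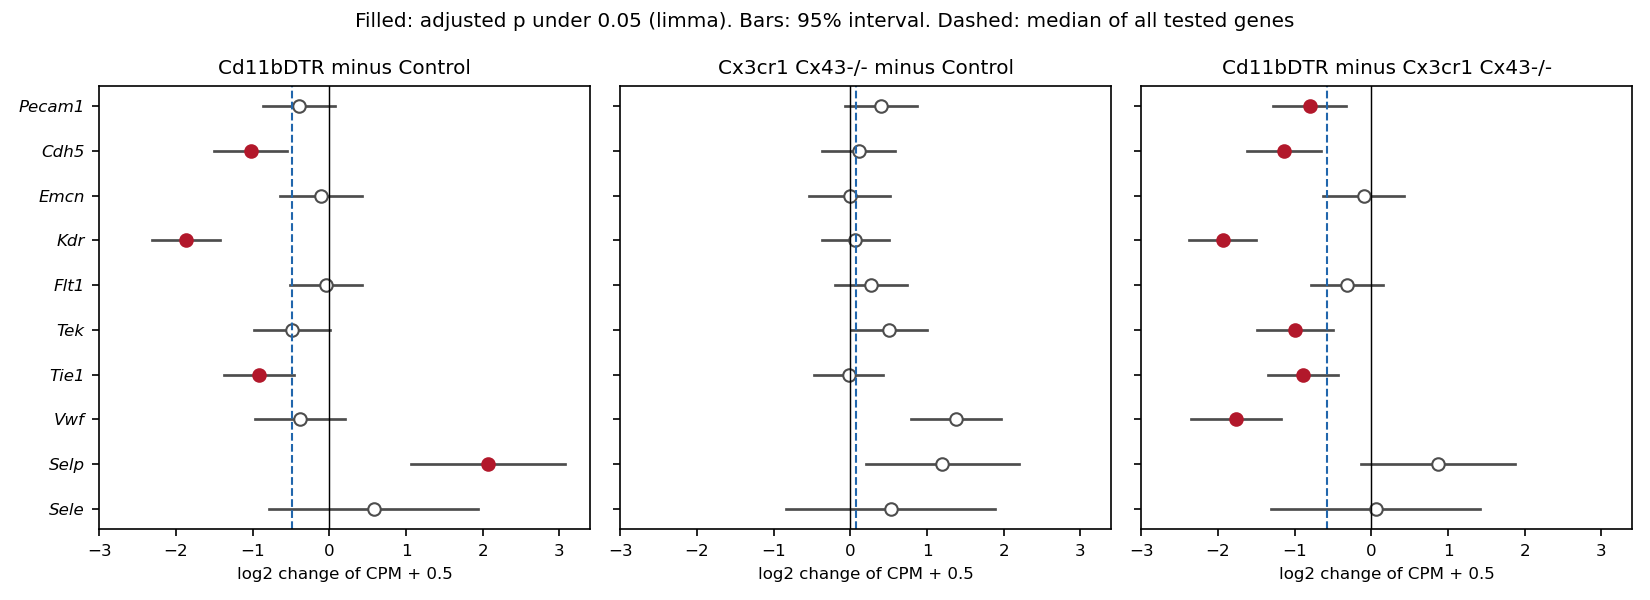
Log2 change of CPM + 0.5 for each of the 10 genes in the 3 comparisons, with 95% intervals from limma. Filled points have an adjusted p under 0.05, and the dashed line is the median change of all tested genes. Kdr lies farthest left in Cd11bDTR minus control, at -1.87, Selp lies farthest right, at 2.07, and no point is filled in Cx3cr1 Cx43-/- minus control.

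Among the receptors, Kdr, the main signalling receptor for VEGF-A, had 21.9, 17.9 and 20.1 CPM in Cd11bDTR libraries, against 89.4, 58.1 and 78.4 CPM in control libraries. Every Cd11bDTR library lay well below every control library, and on the deposited scale, where column totals differ, the Cd11bDTR values were close to each other. The log2 change was -1.87 (SE 0.21, limma adjusted p = 1.10e-06), which ranked 71 of 12925 by p, and it was -1.39 relative to the median gene. Flt1, the other VEGF-A receptor, which binds the ligand tightly and signals weakly, had 45.1, 40.8 and 26.4 CPM in Cd11bDTR libraries and 45.1, 30.4 and 38.9 CPM in control libraries. These groups overlapped across nearly their whole range, with a log2 change of -0.04 (SE 0.23, 95% interval -0.51 to 0.42, limma adjusted p = 0.894). Relative to the median gene the Flt1 change was 0.44. Under median-of-ratios scaling Flt1 was called higher, by 0.45 (limma adjusted p = 0.0155).

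The contrast between the VEGF-A receptors could also be read inside each library, where scaling cancels. The ratio of Flt1 to Kdr CPM was 2.07, 2.27 and 1.32 in Cd11bDTR libraries, against 0.504, 0.523 and 0.496 in control libraries. Cx3cr1 Cx43-/- libraries had ratios of 0.661, 0.549 and 0.559. These ratios, which carry no length correction, were higher in every Cd11bDTR library than in any other. Such a separation is common in this comparison: taken as a ratio to Flt1, 41% of all other tested genes were lower in every Cd11bDTR library than in every control library.

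**Figure D3:**
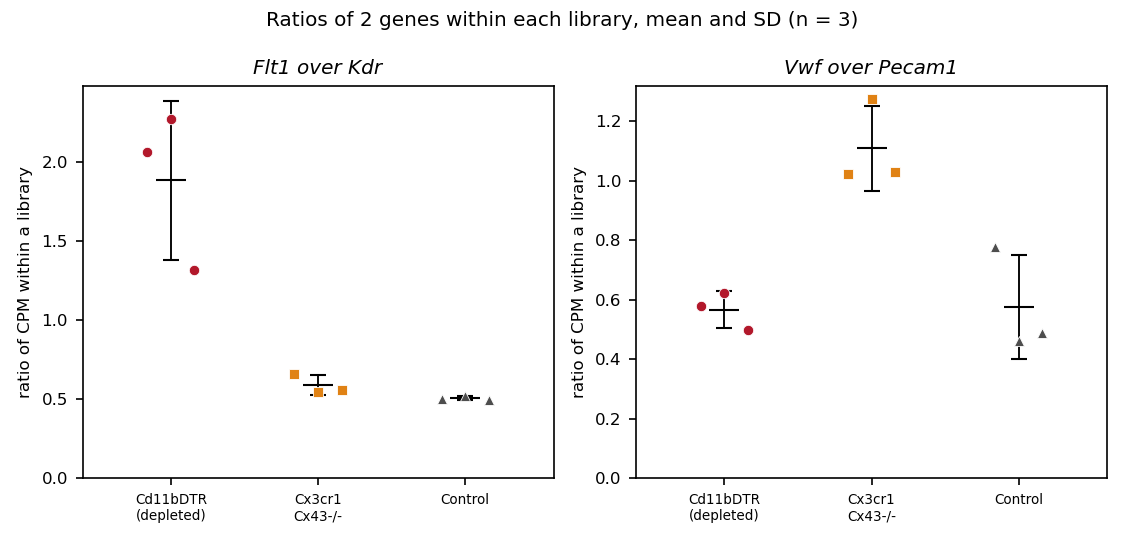
Ratios of CPM within a library, Flt1 over Kdr on the left and Vwf over Pecam1 on the right, by group. Points are libraries, wide ticks are means and bars are 1 SD (n = 3). The first ratio is 1.32 to 2.27 in Cd11bDTR libraries and at most 0.661 elsewhere, and the second is 1.02 to 1.27 in Cx3cr1 Cx43-/- libraries and at most 0.777 elsewhere.

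Because these VEGF-A receptors parted, the 250 bases upstream of each start are shown for comparison. Sequences and starts are those of RefSeq on GRCm38.p6, a later build than the mm9 named in the submitters' processing notes, and no reads were placed on them. The Kdr window spans chr5:75978456-75978705 on the minus strand and the Flt1 window spans chr5:147726012-147726261 on the minus strand. Capitals mark AGGAAG on either strand and the NF-kB consensus, a motif of inflammatory signalling that reads on both strands at the same place. AGGAAG is a longer form of the GGAA core bound by ETS factors, a family with endothelial members such as ERG and FLI1. A window without AGGAAG can hold other GGAA sites, as the Kdr window does on the minus strand.
Kdr: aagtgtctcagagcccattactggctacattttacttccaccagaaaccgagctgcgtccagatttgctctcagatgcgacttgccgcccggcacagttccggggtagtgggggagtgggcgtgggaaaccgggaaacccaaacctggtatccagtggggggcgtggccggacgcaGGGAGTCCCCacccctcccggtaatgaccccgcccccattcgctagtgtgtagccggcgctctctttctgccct
Flt1: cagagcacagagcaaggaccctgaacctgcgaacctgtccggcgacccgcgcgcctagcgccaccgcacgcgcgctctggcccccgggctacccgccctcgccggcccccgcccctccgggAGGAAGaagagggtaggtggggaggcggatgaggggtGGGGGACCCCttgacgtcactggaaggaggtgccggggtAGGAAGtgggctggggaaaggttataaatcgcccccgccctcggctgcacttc
The Kdr window holds an NF-kB consensus match 74 to 65 bases before the start and no AGGAAG, while the Flt1 window holds AGGAAG at 129 to 124 and 53 to 48 bases, and an NF-kB consensus match at 92 to 83 bases before the start. The SP motif GGGCGG occurs 2 times in the Kdr window and 3 times in the Flt1 window, and TATAAA occurs only in the Flt1 window of the pair, with GC contents of 61.6% for Kdr and 70.4% for Flt1. Of 27025 mouse promoter windows of the same length, 29.2% hold AGGAAG on either strand, 7.01% the NF-kB consensus, 32.9% GGGCGG, 13% TATAAA and 10.3% the GATA motif AGATAA, which was found in none of the 7 windows searched. All motifs were sought on both strands, and no match in the windows shown overlaps that of another motif. These matches describe letters in a window and are not measured binding sites. Promoter sequences were found for 7 of the 10 genes, without Pecam1, Cdh5 and Vwf.

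Of the angiopoietin receptors, Tie1 fell and Tek did not pass the test. Tie1, the co-receptor of the pathway, had 43.1, 32.1 and 24.4 CPM in Cd11bDTR libraries, against 69.7, 55.3 and 60.2 CPM in control libraries. The groups did not overlap, and the log2 change was -0.92 (SE 0.22, limma adjusted p = 0.00292), or -0.43 relative to the median gene. Tek, the receptor that binds angiopoietins, had 22.2, 23.9 and 19.0 CPM in Cd11bDTR libraries and 40.3, 19.5 and 36.1 CPM in control libraries. Control replicate 2 fell among the Cd11bDTR values, and the log2 change of -0.49 (SE 0.24, limma adjusted p = 0.112) equalled that of the median gene. Without control replicate 2 the Tek change was -0.81 and was called (limma adjusted p = 0.0121).

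Of the junction and surface genes, Cdh5, which encodes VE-cadherin, had 48.2, 51.3 and 30.4 CPM in Cd11bDTR libraries, against 110.0, 65.4 and 90.1 CPM in control libraries. The ranges were separate, and the log2 change was -1.03 (SE 0.23, limma adjusted p = 0.0018), or -0.54 relative to the median gene. Pecam1, the platelet and endothelial adhesion molecule, had 89.7, 61.0 and 44.4 CPM in Cd11bDTR libraries and 95.7, 69.8 and 84.3 CPM in control libraries. Cd11bDTR replicate 7 lay inside the control range and the other 2 lay below it. The change was -0.40 (SE 0.23, limma adjusted p = 0.167), or 0.09 relative to the median gene. Without Cd11bDTR replicate 7 Pecam1 was called lower, at -0.66 (limma adjusted p = 0.0107), while median-of-ratios scaling gave 0.09. Emcn, an endothelial sialomucin of capillaries and veins, had 39.3, 36.8 and 17.2 CPM in Cd11bDTR libraries and 30.4, 31.1 and 33.1 CPM in control libraries. Cd11bDTR values fell on both sides of the tight control range. The change was -0.11 (SE 0.26, limma adjusted p = 0.759), or 0.38 relative to the median gene.

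Vwf, the granule protein that tethers platelets, had 51.9, 38.0 and 22.2 CPM in Cd11bDTR libraries and 74.3, 32.2 and 41.1 CPM in control libraries. The groups overlapped, and the log2 change was -0.38 (SE 0.28, limma adjusted p = 0.289), or 0.10 relative to the median gene. Selp, which encodes P-selectin, had 8.18, 2.76 and 3.33 CPM in Cd11bDTR libraries, against 2.35, 0.04 and 0.45 CPM in control libraries. All Cd11bDTR values exceeded all control values, although the lowest of them was close to the highest control. These levels rested on about 474, 144 and 216 reads in Cd11bDTR libraries and about 147, 2 and 26 reads in control libraries. The log2 change was 2.07 (SE 0.48, limma adjusted p = 0.00247), or 2.56 relative to the median gene. It ranged from 1.19 with a pseudocount of 2 to 2.92 with a pseudocount of 0.1. The Selp call was lost when no filter on low values was applied (limma adjusted p = 0.0559). Sele, which encodes E-selectin, had 6.61, 0.77 and 0 CPM in Cd11bDTR libraries and 1.44, 0 and 0.89 CPM in control libraries. A single library, Cd11bDTR replicate 7, held most of the Sele signal of its group, and both groups contained a library listed at 0. Its change was 0.58 (SE 0.66, limma adjusted p = 0.50), or 1.07 relative to the median gene. The change of 0.58 turned to -0.47 without that library.

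The upstream windows of the selectin genes, neighbours on chromosome 1 that differed in how evenly they were detected, are given with the same source and marks. The Selp window spans chr1:164115014-164115263 on the plus strand and the Sele window spans chr1:164047984-164048233 on the plus strand.
Selp: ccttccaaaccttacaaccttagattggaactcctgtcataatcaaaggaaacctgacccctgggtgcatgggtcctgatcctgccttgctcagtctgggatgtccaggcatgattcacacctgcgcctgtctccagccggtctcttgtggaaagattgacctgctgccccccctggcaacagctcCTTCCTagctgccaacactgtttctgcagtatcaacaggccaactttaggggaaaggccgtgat
Sele: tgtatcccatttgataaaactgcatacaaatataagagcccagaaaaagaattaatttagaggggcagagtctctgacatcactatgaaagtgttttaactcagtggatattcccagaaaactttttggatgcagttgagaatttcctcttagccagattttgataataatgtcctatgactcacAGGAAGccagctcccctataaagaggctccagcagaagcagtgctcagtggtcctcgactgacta
Each holds 1 AGGAAG, at 64 to 59 bases before the start on the minus strand for Selp and at 65 to 60 bases on the plus strand for Sele. Neither holds the NF-kB consensus as searched, which allows no mismatch and says nothing of the factor. TATAAA occurs at 49 to 44 bases before the start of Sele only, and GC content is 53.6% for Selp and 40.4% for Sele.

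Kdr, Cdh5 and Tie1 were called lower under all 13 alternatives tried. Under other scalings of the columns all 10 changes shifted upwards, with Emcn and Flt1 above 0 at a common total, and Pecam1, Emcn, Flt1 and Vwf above 0 under median-of-ratios scaling.

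**Figure D4:**
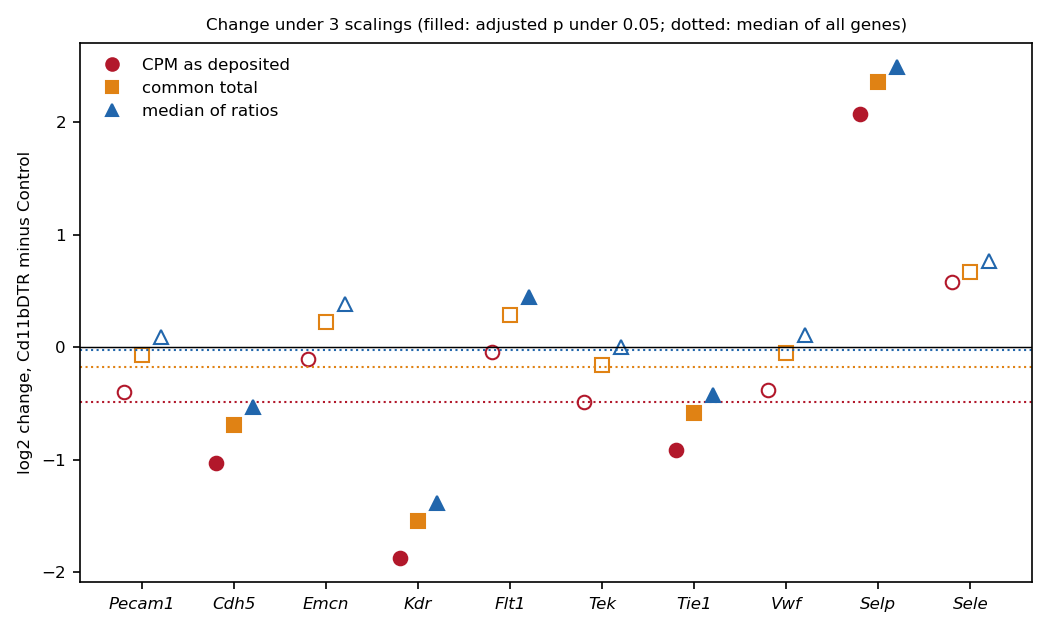
Log2 change in Cd11bDTR minus control for each of the 10 genes under CPM as deposited, a common column total and median-of-ratios scaling, with dotted lines at the median of all genes under each. Kdr, Cdh5, Tie1 and Selp keep their side of 0 and a filled point under all 3, while Flt1 moves to 0.45 and becomes filled under median-of-ratios scaling.

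Genes around the set were read from lists of other endothelial and vessel genes. Of 20 further pan-endothelial genes 6 were called lower and 0 higher in Cd11bDTR nodes, near the 33% of all tested genes, with a median of -0.45, close to that of all genes. Cd93, a receptor of endothelial adhesion and angiogenesis, had 24.3, 15.2 and 13.8 CPM in Cd11bDTR libraries, against 46.0, 31.9 and 42.0 CPM in control libraries (log2 change -1.18, limma adjusted p = 0.000734). Clec14a, a lectin-like protein of the same family, changed by -1.02, and Icam2, a constitutive ligand for leukocyte integrins, by -0.97 (limma adjusted p = 0.00247 and 0.00886). Whether macrophage loss entered the Cd93 change was not tested. Under median-of-ratios scaling the list gave 2 lower and 5 higher, and the Icam2 call was lost. The count of lower genes was 2 without control replicate 1 or control replicate 3, and 10 without Cd11bDTR replicate 7. Of 12 endothelial transcription factors 4 were called lower, a share equal to the 33% of all tested genes called lower, with a median of -0.58, and median-of-ratios scaling gave 1. They included Ets1 at -0.94, Erg, a maintainer of endothelial identity, at -1.14, and Sox7 at -0.76 (limma adjusted p = 0.00371, 0.0072 and 0.0368). Sox18, at -0.62, completes the 4. The Cd93, Clec14a and Ets1 calls held under all 13 alternatives, whereas the Erg call was lost under median-of-ratios scaling and the Sox7 call under 8 of 13 alternatives. Without control replicate 1, control replicate 3, Cd11bDTR replicate 8 or Cd11bDTR replicate 9 the count of transcription factors called lower was 2.

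Of 10 VEGF and angiopoietin ligands, receptors and co-receptors outside the set 6 were called lower and 0 higher in Cd11bDTR nodes, beside 33% and 3.23% of all tested genes. Their median was -0.99, against -0.49 for all tested genes, and the other 4 were not called. Under median-of-ratios scaling 5 were lower. Vegfa, the ligand of Kdr and Flt1, had 71.4, 41.9 and 42.6 CPM in Cd11bDTR libraries, against 161, 131 and 146 CPM in control libraries. The groups were far apart, and the log2 change was -1.52 (SE 0.22, limma adjusted p = 1.99e-05). Nrp1, the co-receptor that presents VEGF-A to Kdr, had 30.1, 27.7 and 23.7 CPM in Cd11bDTR libraries, against 84.0, 62.2 and 71.6 CPM in control libraries (log2 change -1.40, limma adjusted p = 3.17e-05). Angpt1, the agonist of Tek, had 11.5, 15.4 and 13 CPM in Cd11bDTR libraries, against 79.5, 21.7 and 58.5 CPM in control libraries. Control replicate 2 was again the lowest control, and the Angpt1 change was -1.78 (SE 0.31, limma adjusted p = 0.000169). The calls for Vegfa, Nrp1 and Angpt1 held under all 13 alternatives. Ligands of these receptors are made largely outside the endothelium, and 3 of 10 cardiomyocyte genes were also called lower, with Pln at -1.10, Myh6 at -1.33 and Myl7 at -0.84, beside 33% of all tested genes. The cardiomyocyte count was 2 to 6 on leaving out a library, with 6 without Cd11bDTR replicate 7. Of 7 fibroblast genes none was called in limma with all libraries, none had an unadjusted p under 0.05, and 2 were called lower without Cd11bDTR replicate 7 or Cd11bDTR replicate 9. The part of cardiomyocyte RNA in the ligand changes, and of macrophage loss in the Nrp1 change, was not tested.

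Of 9 tested genes of endothelial adhesion and activation 3 were called higher and 0 lower, beside 3.23% and 33% of all tested genes. Their median was 0.38, against -0.49 for all tested genes, and 4 were higher under median-of-ratios scaling. The count was 1 without control replicate 3 and 5 without Cd11bDTR replicate 9, and 2 genes were called lower without Cd11bDTR replicate 7. Vcam1, an integrin ligand for monocytes, had 60.7, 46.9 and 54.4 CPM in Cd11bDTR libraries, against 44.0, 27.2 and 35.8 CPM in control libraries (log2 change 0.61, limma adjusted p = 0.0303). Darc, the older symbol of the venular chemokine receptor Ackr1, had 2.66, 5.58 and 0.68 CPM in Cd11bDTR libraries and 0.38, 1.23 and 0.30 CPM in control libraries (log2 change 1.41, limma adjusted p = 0.0422). Darc values overlapped between the groups, and its call was lost under 6 alternatives. The Vcam1 call was lost under 4 alternatives, among them the fits without control replicate 2 or control replicate 3. Icam1, named here after its values were seen, had a change of -0.03 (limma adjusted p = 0.933). Of 3 tested selectin partners, Cd44, which can bind E-selectin on leukocytes, was called higher, by 1.02 (limma adjusted p = 0.00155). Glg1, an E-selectin ligand, had a change of -0.44, and Selplg, the main ligand of P-selectin, of -0.19 (limma adjusted p = 0.102 and 0.705).

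Markers of blood cells were read beside the Selp result. Of 8 monocyte and neutrophil genes 4 were tested and 2 called higher, beside 3.23% of all tested genes. The 8 genes summed to 21.1, 25.5 and 19.4 CPM in Cd11bDTR libraries, against 9.20, 4.60 and 5.55 CPM in control libraries. Plac8, at 2.24, and Ccr2, at 1.19, were called higher, and Ly6c2 had a change of 1.10 (limma adjusted p = 0.00399, 0.0213 and 0.129). Csf3r, the remaining tested gene, was not called and averaged 0.83 CPM in Cd11bDTR libraries and 0.94 CPM in control libraries. The Ccr2 call was lost without control replicate 2 or Cd11bDTR replicate 9. Among platelet genes, Pf4 fell by 1.97 on the log2 scale (limma adjusted p = 2.36e-06), Gp1ba had a change of -1.08 and Itga2b of 0.39, neither called. Gp6 stood at 0 in all 9 libraries, and Ppbp, Gp9 and Treml1 stayed under 1 CPM in every library. The part of monocytes in the Vcam1, Cd44 and Selp values was not tested.

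Markers of vessel segments were mixed. Their counts stand beside 33% of all tested genes called lower and 3.23% called higher. Aplnr, the apelin receptor of veins and sprouting capillaries, had 2.11, 1.53 and 3.42 CPM in Cd11bDTR libraries, against 32.3, 24.3 and 31.8 CPM in control libraries. Its log2 change was -3.43 (SE 0.27, limma adjusted p = 2.58e-09). No Cd11bDTR library came near the control range. The other venous genes were Ephb4 at -0.75 and Nr2f2 at -0.36 (limma adjusted p = 0.0213 and 0.289), and the Ephb4 call was lost under 7 alternatives. Of 10 arterial genes 3 were called lower, near the 33% of all tested genes. These 3, genes of Notch signalling, were Dll4 at -1.08, Hey1 at -1.42 and Notch1 at -0.98 (limma adjusted p = 0.00604, 0.00604 and 0.0093). Under median-of-ratios scaling 1 arterial gene was lower and 2 were higher, and without Cd11bDTR replicate 7 the count of lower genes was 5. Of 7 capillary genes Meox2, at -1.11, and Aqp1, at -0.84, were called lower, and Car4, at 0.94, was called higher (limma adjusted p = 0.00292, 0.0225 and 0.0208). Gpihbp1, which anchors lipoprotein lipase on capillaries, was also called higher, by 0.62 (limma adjusted p = 0.0442). Capillary counts changed with the libraries used: 0 were higher without control replicate 1 or Cd11bDTR replicate 8. Of 3 endocardial genes Tmem100 was called higher, by 0.70 (limma adjusted p = 0.0433), a call lost under 8 alternatives, while Nfatc1 was at -0.34 and Npr3 at -0.41. Among 5 tested lymphatic genes Prox1 fell by 1.80 and Pdpn rose by 1.27 on the log2 scale (limma adjusted p = 2.38e-06 and 0.00153). Prox1 is also expressed by cardiomyocytes and Pdpn by stromal cells.

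Of 10 genes of pericytes and smooth muscle, the cells around the endothelium, 6 were called lower and 2 higher, beside 33% and 3.23% of all tested genes. Their median was -0.66, against -0.49 for all tested genes. Abcc9, a channel subunit of pericytes, was at -0.94, Cnn1, a contractile protein, at 1.48, and Notch3 at -0.93 (limma adjusted p = 0.00101, 0.00179 and 0.00473). Tagln, another contractile gene, was the other called higher, at 0.77 (limma adjusted p = 0.0085). The count of lower genes was 1 without control replicate 1 and 1 under median-of-ratios scaling.

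**Figure D5:**
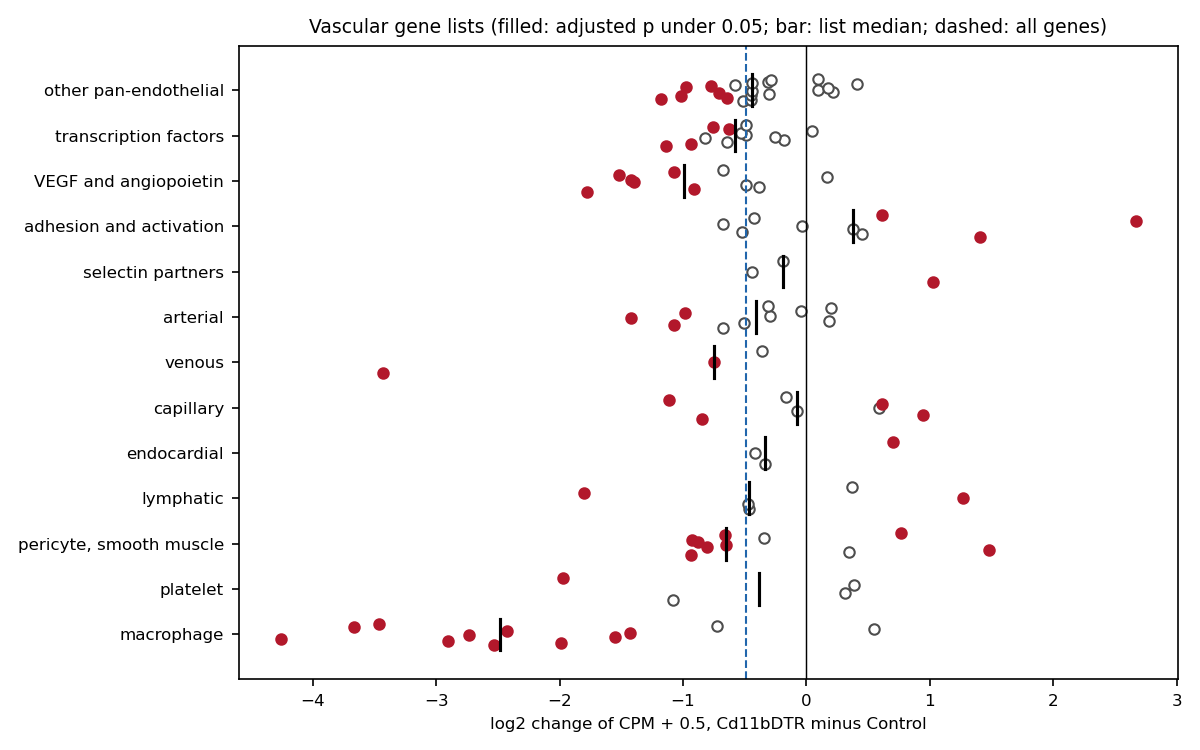
Log2 change of CPM + 0.5 in Cd11bDTR minus control for the tested genes of each list, with a row per list. Filled points have a limma adjusted p under 0.05, the short bar is the list median and the dashed line the median of all tested genes, at -0.49. VEGF and angiopoietin genes have a median of -0.99, adhesion and activation genes of 0.38 and macrophage genes of -2.48.

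In Cx3cr1 Cx43-/- against control nodes none of the 10 endothelial genes passed the adjusted threshold, and neither did any of the 133 genes tested from the other lists, of which 12 had an unadjusted p under 0.05 in limma. Only 1 of the 12925 tested genes was called, 0.00774%, and 191 had an unadjusted p under 0.05. Of the 10 genes 3 had an unadjusted p under 0.05 in limma, namely Vwf, Selp and Tek, all with higher values in Cx3cr1 Cx43-/- libraries. The libraries did not overlap for 2 genes, Vwf and Pecam1, beside 8.94% of all tested genes in either direction and 5.94% higher. This comparison and the preceding one share the same 3 control libraries. The median change of the 10 genes was 0.34, against 0.07 for all tested genes.

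Vwf had 106, 145 and 114 CPM in Cx3cr1 Cx43-/- libraries, against 74.3, 32.2 and 41.1 CPM in control libraries. The lowest Cx3cr1 Cx43-/- library was above the highest control library. The log2 change was 1.38 (SE 0.28, 95% interval 0.79 to 1.96), with an unadjusted limma p of 6.21e-05, the second smallest of all tested genes, and an adjusted p of 0.401. It was called without control replicate 1, the highest control, where the change was 1.72 (limma adjusted p = 0.0359), and under no other alternative. Inside each library the ratio of Vwf to Pecam1 was 1.02, 1.27 and 1.03 in Cx3cr1 Cx43-/- libraries, against 0.777, 0.460 and 0.488 in control libraries. These ratios, which carry no length correction, were higher in every Cx3cr1 Cx43-/- library than in any other. Taken as a ratio to Pecam1, 61 of the other 12924 tested genes, 0.472%, were higher in every Cx3cr1 Cx43-/- library than in every control library. Pecam1 itself was higher in this way, so fewer genes can exceed it, and on plain CPM the share was 5.94%. As a ratio to Cdh5, Vwf was at 1.23, 1.62 and 1.08 in Cx3cr1 Cx43-/- libraries and 0.676, 0.492 and 0.456 in control libraries. That ratio also reached 1.08 in Cd11bDTR replicate 7, so it barely set Cx3cr1 Cx43-/- apart from Cd11bDTR.

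Vwf reads could come from platelets, and blood markers were therefore read beside it. The platelet list, mostly Pf4, summed to 33.9, 30.7 and 29.9 CPM in Cx3cr1 Cx43-/- libraries and 30.9, 24.2 and 28.7 CPM in control libraries, with Gp1bb at 0.54, Pf4 at 0.16 and Gp1ba at 0.20 (log2 changes, limma adjusted p = 1 each). No red cell gene passed the adjusted threshold, and their sum was 31.4, 29.6 and 17.6 CPM in Cx3cr1 Cx43-/- libraries, against 4.44, 16.4 and 6.20 CPM in control libraries, and Hbb-b1 had a change of 1.59 (limma adjusted p = 0.702). The part of blood content in the Vwf values was not tested.

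Selp had 1.81, 2.07 and 2.49 CPM in Cx3cr1 Cx43-/- libraries and 2.35, 0.04 and 0.45 CPM in control libraries. Control replicate 1 fell inside the Cx3cr1 Cx43-/- range, and the change of 1.20 (SE 0.48, limma unadjusted p = 0.0208) had an adjusted p of 1. Tek had 40.0, 45.7 and 45.0 CPM in Cx3cr1 Cx43-/- libraries and 40.3, 19.5 and 36.1 CPM in control libraries, a change of 0.50 (SE 0.24, limma unadjusted p = 0.0479, adjusted p = 1). Pecam1 had 104, 114 and 111 CPM in Cx3cr1 Cx43-/- libraries, against 95.7, 69.8 and 84.3 CPM in control libraries, a change of 0.40 (SE 0.23, 95% interval -0.07 to 0.87). Its ranges were separate but close.

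The other 6 genes had intervals that included 0. The change was 0.07 for Kdr (95% interval -0.37 to 0.50), 0.11 for Cdh5 (-0.37 to 0.59) and -0.02 for Tie1 (-0.48 to 0.43). It was -0.01 for Emcn (-0.54 to 0.52), 0.27 for Flt1 (-0.19 to 0.74) and 0.52 for Sele (-0.84 to 1.89). Sele stood at 0.67, 1.19 and 1.53 CPM in Cx3cr1 Cx43-/- libraries, inside or just above the control range of 0 to 1.44 CPM. Among the other endothelial genes the smallest unadjusted p belonged to Klf2, a flow-responsive transcription factor, with a change of -0.52, and to Plvap, the diaphragm protein of fenestrated vessels, with 0.52 (limma unadjusted p = 0.0315 and 0.0478, adjusted p = 1 for each).

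In Cd11bDTR against Cx3cr1 Cx43-/- nodes 6 of the 10 genes were lower and 0 higher, beside 40.7% of all tested genes called lower and 2.69% higher, or 43.4% in either direction. The libraries did not overlap for 6 lower genes and 1 higher gene, beside 50.6% of all tested genes lower and 3.39% higher without overlap, 54% in all. This comparison shares its libraries with the others and is no separate evidence. The median change of the 10 genes was -0.85, against -0.58 for all tested genes. Vwf, which did not pass the test against control, was called here, with 51.9, 38.0 and 22.2 CPM in Cd11bDTR libraries against 106, 145 and 114 CPM in Cx3cr1 Cx43-/- libraries, a change of -1.76 (SE 0.28, limma adjusted p = 7.31e-05), or -1.18 relative to the median gene. Kdr changed by -1.94, Cdh5 by -1.14 and Tek by -0.99 (limma adjusted p = 6.86e-07, 0.000658 and 0.00276). Tie1 changed by -0.89 and Pecam1 by -0.81 (limma adjusted p = 0.00302 and 0.00764). For all of these 6 genes the groups did not overlap. Under median-of-ratios scaling Kdr, Cdh5 and Vwf stayed called, the calls for Pecam1 at -0.23, Tek at -0.43 and Tie1 at -0.32 were lost, and Selp was called higher at 1.36 (limma adjusted p = 0.0499).

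The 4 genes that did not pass were Flt1 at -0.31, Emcn at -0.10, Sele at 0.06 and Selp at 0.87 (limma adjusted p = 0.258, 0.767, 0.949 and 0.145). Flt1 and Emcn had intervals of -0.78 to 0.15 and -0.63 to 0.43. Selp was nonetheless higher in every Cd11bDTR library, at 2.76 to 8.18 CPM, than in every Cx3cr1 Cx43-/- library, at 1.81 to 2.49 CPM.

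Within groups, the endothelial genes varied together from library to library. After each group's mean was subtracted, the 21 pairs among Pecam1, Cdh5, Emcn, Kdr, Flt1, Tek and Tie1 had Pearson correlations between 0.13 and 0.93 over the 9 libraries, with a median of 0.77, and the lowest was that of Emcn with Kdr. Differences in column totals and depth between libraries enter every gene alike, and pairs of other genes were not measured for comparison. By the same measure the tested genes outside all lists most like the mean of these 7 were Rasd2, Dnajc11 and Gnai2, with correlations of 0.996, 0.996 and 0.993.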

How the data were processed

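Bulk RNA of microdissected AV nodes was sequenced in 9 libraries, 3 for each of 3 groups. DNase-treated total RNA went into strand-directional libraries, per the labels' protocols. The build mm9 and the tools edgeR, HTSeq 0.6.0 and STAR 2.3.0 are named, without roles, per the submitters' processing notes. The authors deposited CPM rounded to 2 decimals, and any further normalization was not stated in these sources. Low values fell on multiples of a single read, so 1 CPM stood for about 52.1 to 64.9 reads. Exact reads were not rebuilt, and no count model was run. Column names matched the sample titles.

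Tests were run in R 4.3.3 with limma 3.58.1 on log2(CPM + 0.5) (trended empirical Bayes, all 9 libraries in a single model, 3 contrasts), for the 12925 genes at 1 CPM or more in at least 3 libraries. A fold change on this scale understates the change of low genes. P-values were two-sided and adjusted by Benjamini-Hochberg over all tested genes. The p-values rest on the spread between libraries within groups, pooled over the 3 groups and drawn towards that of other genes. An exact test of 3 against 3 libraries could not go below 0.1. The procedure was tested on simulated data with independent noise for each gene and no shift of whole libraries. That simulation does not cover the differences of scale between these libraries. Alternatives included dropping the filter, filtering at a mean of 5 CPM, pseudocounts of 0.1 and 2, common-total and median-of-ratios scaling, a fit of only the groups compared, and each library left out. Median-of-ratios scaling takes the median gene as constant.

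The 10 genes and all lists were chosen with earlier results of these data known. All 10 genes were named, and up to 3 genes with the smallest p were named from each other list. Icam1, Sox18, Gpihbp1, Tagln and Csf3r fall outside that rule and were chosen after their values were seen. Some genes that the lists and their counts hold are not reported by name here. Exon lengths are the union of exons in GENCODE vM21, and promoter windows are the 250 bases before the start in RefSeq GRCm38.p6, matched by symbol. How reads of overlapping genes were assigned is not stated.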

Additional observations from a re-analysis of the deposited data

How the results depend on the processing

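No paired analysis was possible because the groups share no replicate numbers. In Cd11bDTR against control, a common total turned Emcn to 0.22 and Flt1 to 0.29, and median-of-ratios scaling turned Pecam1 to 0.0932, Emcn to 0.38, Flt1 to 0.45 and Vwf to 0.11. In Cx3cr1 Cx43-/- against control, median-of-ratios scaling turned Kdr to -0.0120. In Cd11bDTR against Cx3cr1 Cx43-/-, a pseudocount of 0.1 turned Sele to -0.49, a common total turned Emcn to 0.28 and Flt1 to 0.0682, and median-of-ratios scaling turned Emcn to 0.47 and Flt1 to 0.25. Leaving out each library in turn gave -0.19 to 0.19 for Flt1, -0.47 to 1.44 for Sele and -0.32 to 0.27 for Emcn in Cd11bDTR against control. It gave -0.0896 to 0.28 for Cdh5, -0.11 to 0.20 for Kdr, -0.0472 to 0.93 for Sele, -0.11 to 0.11 for Emcn and -0.12 to 0.0661 for Tie1 in Cx3cr1 Cx43-/- against control, and -1.0 to 0.92 for Sele and -0.31 to 0.28 for Emcn in Cd11bDTR against Cx3cr1 Cx43-/-. All-gene calls ranged from 2667 to 6241 in Cd11bDTR against control, from 0 to 2 in Cx3cr1 Cx43-/- against control and from 3284 to 7036 in Cd11bDTR against Cx3cr1 Cx43-/- on leaving out a library, beside 4678, 1 and 5604 with all libraries. Without control replicate 1 the first of these was 2667 and without Cd11bDTR replicate 7 it was 6241. In Cx3cr1 Cx43-/- against control, a pseudocount of 0.1 and no filter each gave 0 calls and a pseudocount of 2 gave 2. Median-of-ratios scaling gave 3350 calls in Cd11bDTR against Cx3cr1 Cx43-/-, of which 1715 were higher, and in Cd11bDTR against control 1717 higher and 1655 lower, against 417 and 4261 as deposited. A common total gave 1136 higher and 2534 lower there. Calls among the 10 genes in Cx3cr1 Cx43-/- against control ranged from 0 to 1 on leaving out a library. The causes were not tested. Selp and Sele, the lowest of the 10, rested on 0 to 474 reads a library.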
